A study of Mus musculus with 32 samples.

Results

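Long 3′ UTR intervals were described here in the mouse amygdala, across 26 SLAM-seq libraries. SLAM-seq reads newly made RNA from T-to-C conversions: the uridine analogue 4-thiouridine (4sU) enters new transcripts, and alkylation makes it read as C. An interval was taken when it spanned 4000 bases or more and held 20000 or more covered T positions summed over the libraries, which left 1071 of the 23996 RefSeq 3′ UTR intervals of the tables. A covered T position is a reference T under 1 read. A further 40 intervals were long enough but under the coverage minimum, and 10986 shorter intervals over that minimum served as the other covered intervals. All mice were wild type. They received 100 mM 4sU in DMSO, or DMSO, by stereotaxic injection into the amygdala 24 h before RNA extraction from the amygdala of both sides. The groups were baseline 4sU (5 libraries), baseline DMSO (4), acute stress 4sU (5), acute stress DMSO (5), chronic stress 4sU (4) and chronic stress DMSO (3). The labels do not state the kind or length of stress, nor the age and number of animals behind a library. The p-values below therefore reflect differences between libraries, which may be technical.

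The 3′ UTR is the stretch of a messenger RNA after the stop codon, where RNA-binding proteins and microRNAs attach and act on stability, location and translation. Neurons are known for long 3′ UTRs, which often arise from use of a poly(A) site farther from the stop codon. Genes of synapses, ion channels and RNA regulation are among those with such long ends.

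The long intervals had a median length of 5041 bases, with quartiles at 4428 and 6013, against a median of 1291 bases for the other covered intervals. Of them 269 spanned 6000 bases or more. Nearest to the length limit, Lrrc8b with 4003 and Slc6a6 with 4005 bases lay inside, and St8sia4 and Htr5a lay outside by 1 base. The lowest summed coverage inside was 20656 covered T positions. The members carried 966 gene symbols, 94 of them with several long intervals, and 22.4% of members overlapped another interval on the same strand, against 19.7% of the other covered intervals. Such intervals share reads, so their values are not separate measurements. The median T content was 30.6% in long and 29.1% in other covered intervals.

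The longest was the 3′ UTR of Grin2b, an NMDA receptor subunit, with 18876 bases on chromosome 6 (135713221 to 135732096, minus strand, mm10). It was followed by Lrrc7 (17360 bases), a scaffold of the postsynaptic density, Kctd16 (16154 bases), an auxiliary subunit of GABA-B receptors, and Aak1 (15928 bases), a kinase of clathrin-mediated endocytosis. The most read was that of Slc1a2, the main glutamate transporter of astrocytes, at chromosome 2 from 102781535 to 102790783 on the plus strand. Per 1000 bases and library, Slc1a2 had 3357 reads and Grin2b had 334. Long intervals were common in several gene lists. Of genes with any covered interval, 9.22% had a long one. The share was 42.2% among voltage-gated ion channels (19 of 45), 40.8% among RNA-binding and microRNA genes (20 of 49), 38.0% among transcription factors and chromatin genes (30 of 79) and 27.0% among glutamate and GABA receptors (10 of 37). Only 1 of 38 activity-regulated genes had one. These lists were chosen with earlier results of these data known, and the shares are descriptions.

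Each library held 6361216 to 9438303 reads in intervals, of which the long ones took 17.8% to 19.8% in 25 libraries. In acute DMSO library 2 the share was 12.1%. Depth per T position in long over other covered intervals was 0.656 to 0.747 in the 25 libraries and 0.415 in that one. The shortfall of acute DMSO library 2 reached the most read members: Slc1a2 had 1730 CPM there (counts per 1e6 interval reads on TMM-scaled totals) and 4049 to 4546 CPM in the other 4 acute DMSO libraries. For Grin2b the value was 235 CPM there and 624, 832, 874 and 1038 CPM in the others. The other 25 libraries showed group means of the read share between 18.6% ± 0.469 (SD, n = 5, baseline 4sU) and 19.5% ± 0.288 (SD, n = 4, acute DMSO without library 2), and the groups overlapped. Total calls for reads with 4sU against DMSO under acute stress, and in acute against baseline DMSO, are given below with and without library 2. Other results that use acute DMSO, among them T quartile counts, correlations and single fold changes, include it unless stated.

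**Figure D1:**
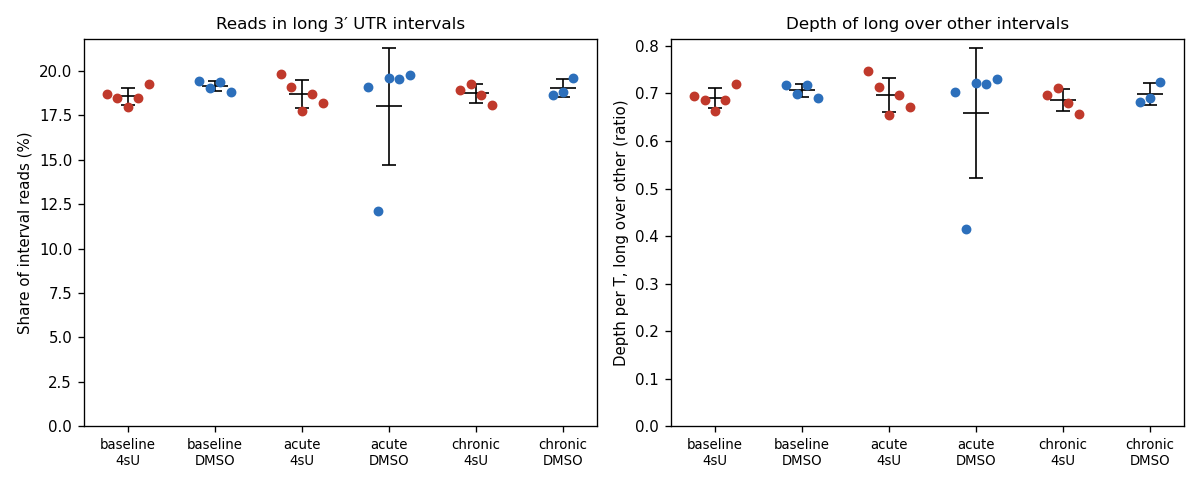
Share of interval reads in long intervals (left, percent) and depth per T position in long over other covered intervals (right, ratio) for each library by group, red for 4sU and blue for DMSO, with the mean and SD in black. Acute DMSO library 2 sits at 12.1% and 0.415, below the 25 other libraries.

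Reads of long intervals differed between 4sU and DMSO mice at baseline. Long intervals poor in T were higher with 4sU and those rich in T were lower. Of 1071 members, 157 were higher and 304 lower at an adjusted p under 0.05 (edgeR's quasi-likelihood test on all tested intervals, two-sided, Benjamini-Hochberg adjustment), which is 43.0%, beside 44.3% called among all 15713 intervals tested (21.5% higher, 22.7% lower). Among the 10986 other covered intervals 52.1% were called (25.4% higher, 26.7% lower), against 14.7% higher and 28.4% lower among long intervals, and the difference between these shares was not tested. For 4sU against DMSO under acute stress, and for chronic against baseline 4sU, described below, the other covered intervals had 56.8% and 54.8% called. At baseline the median log2 fold change of the long intervals was -0.12, and over all tested intervals it was 0.00. All 1071 passed the filter on low counts. Split by T content, the T-poorest quartile of long intervals (20.5% to 28.3% T) had 120 higher and 10 lower, and the T-richest (32.6% to 38.7% T) had 0 higher and 184 lower. The other covered intervals showed the same order by T content, with 1562 higher and 103 lower of 2747 in their T-poorest quartile and 43 higher and 1767 lower in their T-richest.

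Mdga1, a cell-surface protein that binds neuroligins, has 24.2% T in its long interval (chromosome 17, 29827956 to 29832306, minus strand). It had 82.3, 110, 79.6, 97.6 and 97.5 CPM in the baseline 4sU libraries and 46.6, 43.1, 49.1 and 37.4 CPM in baseline DMSO. These groups did not overlap, and the log2 fold change was 1.08 ± 0.14 (SE; edgeR adjusted p = 2.51e-07). Nos1, the neuronal nitric oxide synthase, with 24.7% T, stood at 206, 234, 184, 222 and 226 CPM with 4sU and at 108, 97.9, 109 and 102 CPM with DMSO. Its log2 fold change was 1.04 ± 0.19 (edgeR adjusted p = 6.67e-05).

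Fubp1, a single-stranded nucleic acid binding regulator of transcription and splicing, has 37.5% T (chromosome 3, 152232297 to 152236829, plus strand). It had 92.7, 78.4, 88.4, 85.0 and 89.3 CPM with 4sU and 186, 203, 178 and 201 CPM with DMSO at baseline, a log2 fold change of -1.15 ± 0.09 (edgeR adjusted p = 3.74e-11). The protocadherin Pcdh11x, an adhesion protein with 36.3% T, had 21.3, 22.6, 21.3, 21.1 and 24.3 CPM against 62.0, 59.5, 47.1 and 47.8 CPM, and its log2 fold change was -1.29 ± 0.19 (edgeR adjusted p = 5.87e-06). For Gria2, the AMPA receptor subunit that sets calcium permeability, with 34.8% T, the values were 512, 443, 425, 498 and 481 CPM against 866, 838, 892 and 874 CPM. The log2 fold change of Gria2 was -0.88 ± 0.10 (edgeR adjusted p = 4.2e-08). In these 3 T-rich intervals every DMSO library lay above every 4sU library. Rif1, a regulator of replication timing and DNA repair, was lower by a log2 fold change of -1.07 ± 0.15, and Scube1 and Disp3 were higher by 1.31 ± 0.43 and 0.95 ± 0.24. The intervals of Fubp1, Gria2 and Mdga1 overlap other intervals of their genes.

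By gene list, members with a long interval fell more often than they rose with 4sU at baseline in 9 of the 9 lists with 5 or more such members, as did the long intervals as a whole, of which 14.7% were higher and 28.4% lower. Of 20 RNA-binding and microRNA genes 2 were higher and 9 lower, with a median log2 fold change of -0.31. Of 6 protocadherins and cadherins 0 were higher and 4 lower. Of 10 glutamate and GABA receptors 0 were higher and 4 lower, and of 30 transcription factors and chromatin genes 3 were higher and 9 lower. Among 19 voltage-gated ion channels 4 were higher and 5 lower. No list was tested as a list. With a term for T content, fitted per library to these same reads, 108 long intervals were higher and 102 lower. Such a term takes out differences that follow T content by construction, so these counts do not test the lean of the lists.

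Acute stress mice showed a like order by T content. With 4sU against DMSO, 231 long intervals were higher and 298 lower, 49.4% of members beside 48.8% of all tested (22.7% higher, 26.1% lower). Without acute DMSO library 2 the split was 197 higher and 470 lower. Without the 4 libraries low in glutamatergic markers, described with the acute stress results, it was 330 higher and 141 lower. Shares over all tested intervals are not given for these fits, so the splits are not set against other intervals. With library 2 and all others kept, the T-poorest quartile had 146 higher and 10 lower, and the T-richest 1 higher and 172 lower. Fubp1 had 90.4, 92.1, 78.1, 90.4 and 85.7 CPM in acute 4sU and 189, 133, 189, 182 and 180 CPM in acute DMSO, where the 133 is library 2. Its log2 fold change was -0.9984 ± 0.08 (edgeR adjusted p = 9.75e-11). Mdga1 had 99.1, 113, 86.1, 98.9 and 103 CPM against 50.2, 37.9, 48.0, 43.6 and 63.9 CPM, a log2 fold change of 1.04 ± 0.13 (edgeR adjusted p = 9.68e-08).

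Under chronic stress, 4sU and DMSO mice did not show this order. By edgeR 0 long intervals passed the threshold, beside 0.0% of all tested, and 6 long intervals had an unadjusted p under 0.05. DESeq2 called 0 as well. Fubp1 had 180, 186, 190 and 177 CPM in chronic 4sU and 184, 169 and 195 CPM in chronic DMSO. Mdga1 had 56.0, 52.2, 53.7 and 39.4 CPM against 37.0, 53.9 and 43.7 CPM. The difference between the 4sU effects of chronic and baseline mice was tested directly: 169 long intervals were higher and 65 lower in that interaction, 21.8% of members beside 25.9% of all tested (14.6% higher, 11.3% lower). For Fubp1 the interaction was 1.15 ± 0.13 on the log2 scale (edgeR adjusted p = 3.82e-07), and for Mdga1 it was -0.92 ± 0.20 (edgeR adjusted p = 0.00125). Acute DMSO libraries have no weight in this interaction but share its fit, with its scaling and estimate of the spread. Without acute DMSO library 2 the interaction called 423 long intervals, and the share over all tested intervals is not given. For acute against baseline the same interaction called 0, beside 0.0% of all tested, with 25 long intervals at an unadjusted p under 0.05.

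Chronic and baseline 4sU mice also differed by T content, in the opposite direction. In chronic 4sU 315 long intervals were higher and 179 lower, 46.1% of members beside 46.8% of all tested (24.5% higher, 22.3% lower). The T-poorest quartile had 12 higher and 128 lower, and the T-richest 186 higher and 0 lower. With DMSO the chronic and baseline mice gave 0 calls, beside 0.0% of all tested, with 11 long intervals at an unadjusted p under 0.05. The comparisons of 4sU with DMSO at baseline and of chronic with baseline 4sU share the baseline 4sU libraries.

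The read share of the T quartiles shows the split per library. The T-poorest quartile took 34.3% to 35.3% of long-interval reads in the 10 baseline and acute 4sU libraries and 26.8% to 28.7% in the 16 other libraries, which include chronic 4sU. The T-richest quartile took 16.04% to 16.97% and 21.9% to 23.7%. A read in a long interval covered 37.6 to 38.0 T positions in the 10 libraries and 39.8 to 40.5 in the 16. The 2 sets did not overlap in these 3 measures. A read in the other covered intervals covered 33.7 to 34.1 T positions in the 10 libraries and 36.2 to 36.9 in the 16, also without overlap. Across the 1071 long intervals, Pearson's r of the log2 fold change with T content was -0.73 at baseline, -0.66 under acute and -0.02 under chronic stress, and with log2 length it was -0.07, -0.04 and -0.02. Across the 10986 other covered intervals, r with T content was -0.66 at baseline, -0.63 under acute and -0.03 under chronic stress. These correlations are descriptions across intervals of the same libraries.

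Other values moved with the same 10 libraries. Their mean log2 CPM of 18 oligodendrocyte markers in exon counts was 6.85 to 7.43, against 7.74 to 8.80 in the other 16, and none of these markers has a long interval. At baseline 2 other marker lists also separated 4sU from DMSO libraries: endothelial and mural markers stood at 4.55 to 4.80 against 5.25 to 5.32, and glutamatergic markers at 6.20 to 6.59 against 5.73 to 6.14. Chronic 4sU and DMSO libraries were apart too, with oligodendrocyte markers at 8.232 to 8.547 against 7.919 to 8.216. Their oligodendrocyte precursor markers were at 6.065 to 6.273 against 5.732 to 5.982. Their choroid plexus and ependymal markers were at 3.198 to 5.475 against 5.503 to 5.946. The share of a library's reads that fell in intervals was 16.1% to 17.4% in the 10 libraries and 18.2% to 23.9% in the other 16. In bulk tissue, fewer cells of a type and less RNA per cell cannot be told apart, and the part of these values in the read differences was not tested. An alternative with a T content term per library left 210 calls among long intervals at baseline (108 higher, 102 lower), 338 under acute stress (228 higher, 110 lower), 257 for chronic against baseline 4sU (108 higher, 149 lower) and 50 for the chronic interaction (30 higher, 20 lower). Under this term the balance of higher and lower calls turned under acute stress and for chronic against baseline 4sU. The term is a curve fitted to the reads of the same libraries, so it takes out differences that follow T content by construction. Shares over all tested intervals under it are not given.

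**Figure D2:**
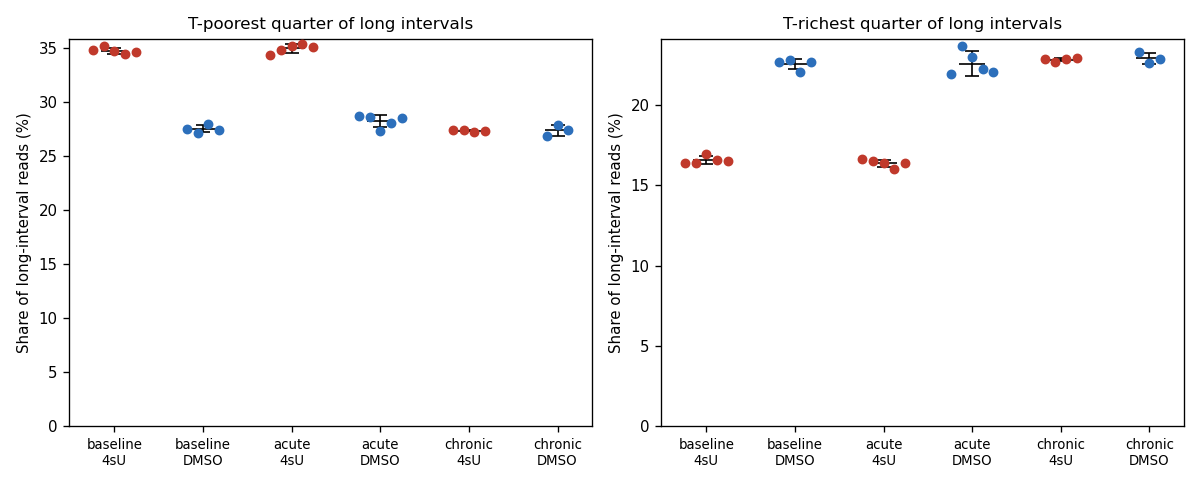
Share of long-interval reads (percent) in the T-poorest (left) and T-richest (right) quartile of long intervals for each library by group, red for 4sU and blue for DMSO, with the mean and SD in black. Baseline and acute 4sU libraries stand at 34.3% to 35.3% on the left and 16.04% to 16.97% on the right, apart from the other 16.

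**Figure D3:**
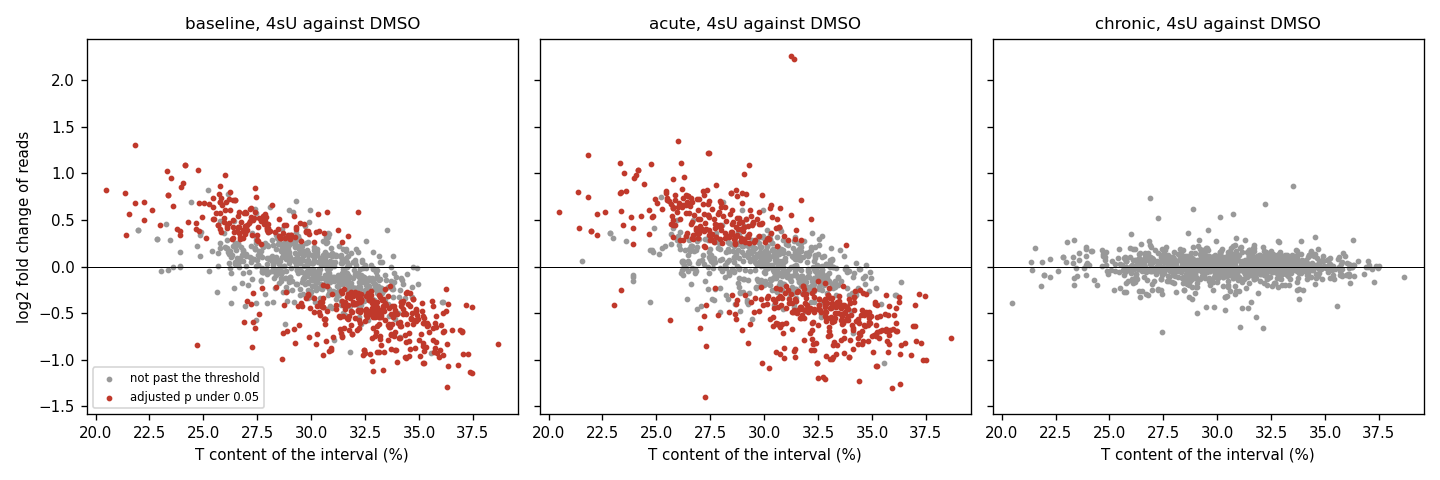
Log2 fold change of reads with 4sU against DMSO over the T content (percent) of each of 1071 long intervals, at baseline, under acute and under chronic stress, red where the adjusted p was under 0.05. The fold change falls with T content at baseline (r = -0.73) and under acute stress (r = -0.66) and not under chronic stress (r = -0.02).

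Exon counts of the same genes gave the same direction in most cases. Of 410 genes whose long interval was called at baseline with 4sU against DMSO, 400 had the same sign in exon counts and 325 of them passed the threshold there too. Exon counts include reads of the 3′ UTR, so this is no separate measurement.

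Acute stress changed few long intervals. In 4sU mice 3 were higher and 0 lower than at baseline, 0.280% of members beside 0.223% of all tested (0.172% higher, 0.0509% lower). They carried the symbols Dio2 and Trp53inp1. Dio2, the deiodinase that activates thyroid hormone (chromosome 12, 90724552 to 90729422, minus strand), had 81.2, 53.7, 72.7, 70.8 and 84.0 CPM in baseline 4sU and 147, 123, 108, 126 and 120 CPM in acute 4sU. The groups did not overlap, and the log2 fold change was 0.78 ± 0.14 (edgeR adjusted p = 0.00989). Trp53inp1, a p53-inducible protein of autophagy and cell death, had 18.9, 28.4, 28.3, 25.6 and 22.9 CPM at baseline and 53.2, 44.4, 33.5, 36.4 and 31.1 CPM under acute stress. Its log2 fold change was 0.68 ± 0.15 (edgeR adjusted p = 0.0407), and the call was lost in 17 of 26 fits that left out 1 library.

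In DMSO mice 6 long intervals were higher and 8 lower under acute stress, 1.31% of members beside 1.45% of all tested (0.986% higher, 0.465% lower). Fitted with only these groups, 1 long interval passed, that of Lypd1. The other 8 of 9 named calls, those of Dio2, Klf13, Trp53inp1, Cdc37l1, Bmp3, Slco5a1, Ipcef1 and Thrb, were lost there, with edgeR adjusted p values from 0.0546 to 0.517 and the same directions. Dio2 had 70.2, 66.9, 74.0 and 104 CPM at baseline and 114, 80.1, 135, 141 and 134 CPM under acute stress, where the 80.1 is library 2. Its log2 fold change was 0.62 ± 0.15 (edgeR adjusted p = 0.0375), and the call was lost in 7 of 26 fits without 1 library. Klf13, a Krüppel-like transcription factor, had 255, 252, 277 and 299 CPM at baseline and 372, 262, 514, 465 and 437 CPM under acute stress, a log2 fold change of 0.60 ± 0.12 (edgeR adjusted p = 0.00704). Zbtb16, a zinc finger repressor known to respond to glucocorticoids, had 47.2, 31.3, 94.3 and 53.5 CPM against 103, 82.3, 272, 140 and 192 CPM. The adjusted p of Zbtb16 was 0.0535 by edgeR, with a log2 fold change of 1.48 ± 0.38.

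The intervals that were lower in acute DMSO included Lypd1, a GPI-anchored modulator of nicotinic receptors, and the growth factor Bmp3. Lypd1 had 370, 479, 424 and 411 CPM at baseline and 204, 199, 218, 266 and 243 CPM under acute stress, with a log2 fold change of -0.90 ± 0.15 (edgeR adjusted p = 0.00111). Bmp3 had 18.9, 33.1, 23.6 and 26.4 CPM and then 8.02, 1.39, 3.02, 8.49 and 4.08 CPM, with a log2 fold change of -2.37 ± 0.41 (edgeR adjusted p = 0.00301). Neither pair of groups overlapped. With 4sU the log2 fold change under acute stress was -0.04 ± 0.14 for Lypd1 and 0.00 ± 0.35 for Bmp3, and neither passed the interaction of acute stress and injection. Slco5a1, Ipcef1 and Thrb, the thyroid hormone receptor beta, also fell in DMSO mice, by 1.0, 0.82 and 0.57 on the log2 scale. The call of Thrb was lost in 18 of 26 fits that left out 1 library (highest edgeR adjusted p = 0.141). That of Slco5a1 was lost without baseline DMSO library 4 and that of Ipcef1 without baseline DMSO library 2. Trp53inp1 and Cdc37l1, a relative of the Hsp90 co-chaperone Cdc37, each rose by 0.58 in DMSO mice, and their calls were lost in 14 and 4 of the 26 fits.

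The acute DMSO count rests on its libraries. Scaling also moved the split: it was 3 higher and 7 lower with DESeq2 size factors, and 4 higher and 14 lower with library totals. Without library 2, 64 long intervals were higher and 8 lower. Acute DMSO libraries 1, 3 and 4 and chronic DMSO library 1 were the 4 lowest in glutamatergic markers. The mean log2 CPM of 12 such markers was 4.18 to 6.63 in acute DMSO and 5.73 to 6.14 in baseline DMSO. Oligodendrocyte precursor markers were at 6.03 to 6.49 in acute and 5.76 to 5.98 in baseline DMSO, and endothelial and mural markers at 4.82 to 5.18 and 5.25 to 5.32, both without overlap. Choroid plexus and ependymal markers ranged from 1.36 to 5.80 in acute and from 5.37 to 5.64 in baseline DMSO. Without those 4 libraries, 3 long intervals were higher and 88 lower. Shares over all tested intervals are not given for these other fits, so the counts show only how the calls depend on the fit. The part of these marker levels in the changes was not tested.

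**Figure D4:**
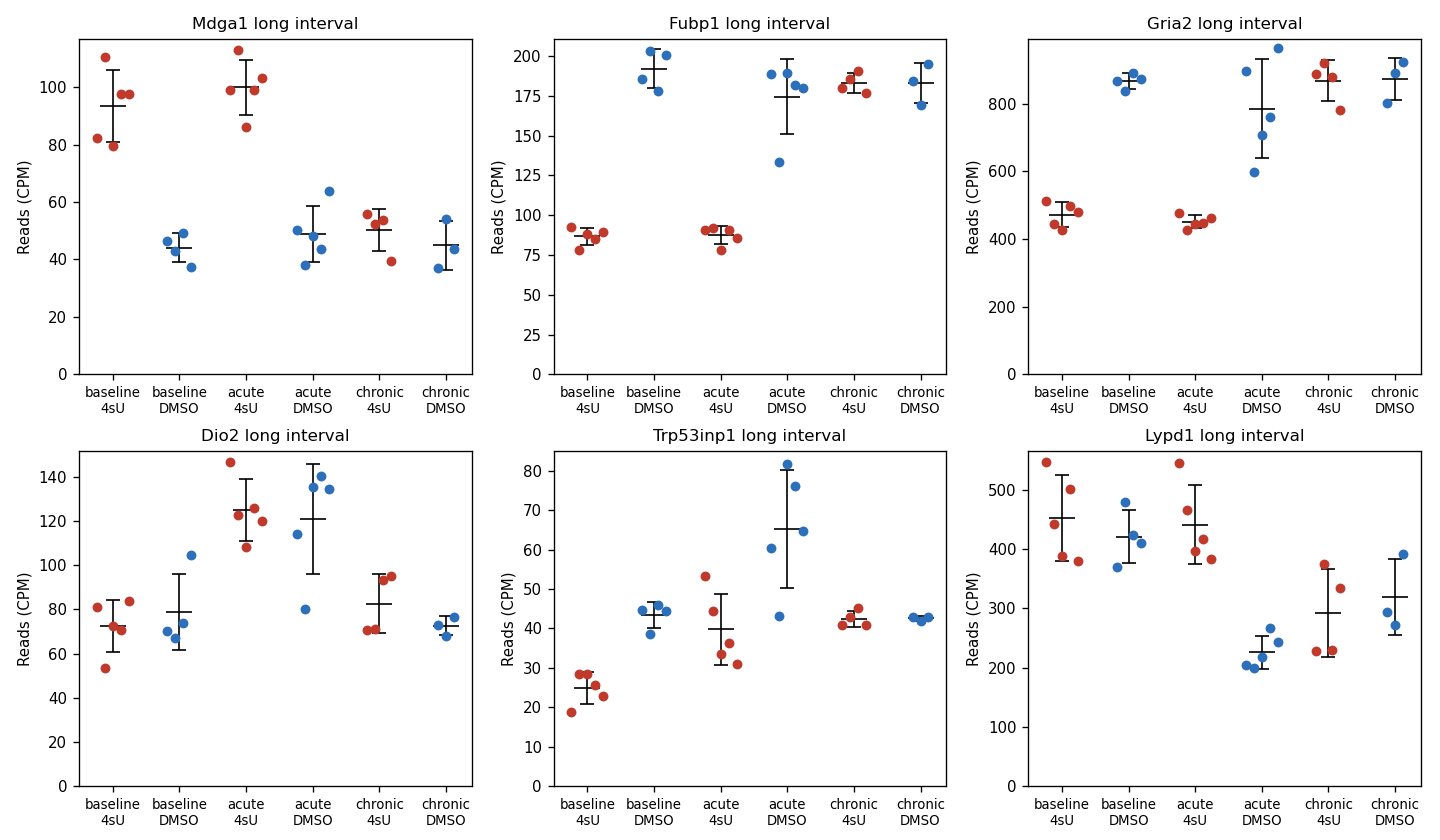
Reads in CPM of 6 long intervals for each library by group, red for 4sU and blue for DMSO, with the mean and SD in black. Mdga1 is high and Fubp1 and Gria2 are low in baseline and acute 4sU, Dio2 is highest in the acute groups, and Lypd1 is lowest in acute DMSO, at 199 to 266 CPM.

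Conversions were counted per 10000 covered T positions, pooled over intervals. The pooled rate of long intervals was 3.94, 3.43, 3.95, 3.68 and 3.67 in baseline 4sU and 2.48, 2.45, 2.89 and 2.22 in baseline DMSO. Under acute stress it was 4.57, 3.68, 3.98, 3.64 and 3.19 with 4sU and 2.47, 2.13, 2.14, 2.20 and 2.08 with DMSO. Under chronic stress it was 3.76, 4.83, 3.93 and 5.37 with 4sU and 2.09, 2.38 and 2.31 with DMSO. Every 4sU library lay above every DMSO library. The DMSO rate is the background measured the same way. Each library had 9875 to 31868 conversions in long intervals.

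Long intervals had a lower pooled rate than the other covered intervals in all 26 libraries. The ratio of long to other was 0.639 to 0.798 with 4sU and 0.866 to 0.927 with DMSO, without overlap. Its mean was 0.743 ± 0.049 (SD, n = 5) in baseline, 0.727 ± 0.028 (SD, n = 5) in acute and 0.672 ± 0.043 (SD, n = 4) in chronic 4sU. The other covered intervals include a few of very high depth. Without the 100 most read of them the ratio was 0.780 to 0.898 with 4sU and 0.860 to 0.926 with DMSO, and the ranges overlapped. By the median over intervals the classes lay closer. That median was 2.28 to 3.21 in long and 2.34 to 3.89 in other covered intervals with 4sU, and 1.904 to 2.78 and 1.91 to 2.80 with DMSO. It was lower in long intervals in 14 of 14 libraries with 4sU and in 8 of 12 with DMSO, at 0.825 to 0.994 and 0.905 to 1.02 times the median of the others.

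**Figure D5:**
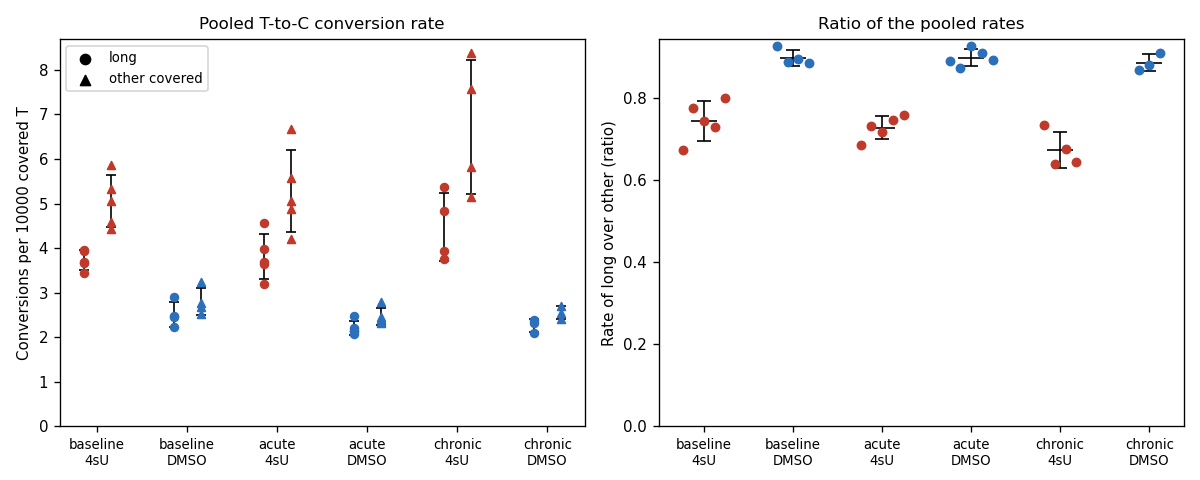
Pooled conversions per 10000 covered T positions (left) in long (circles) and other covered (triangles) intervals, and the ratio of long to other (right), for each library by group, red for 4sU and blue for DMSO, with SD bars around the mean. The ratio is 0.639 to 0.798 with 4sU and 0.866 to 0.927 with DMSO.

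Of the 1071 long intervals 1049 had enough coverage for a test of conversion with 4sU against DMSO. At baseline 77 had more conversions with 4sU and 0 fewer, 7.34% of those tested beside 7.55% called among all 9915 tested intervals (7.37% higher, 0.182% lower). Under acute stress the counts were 118 and 0 (11.2% beside 11.9%, of which 11.8% higher and 0.121% lower), and under chronic stress 147 and 0 (14.0% beside 14.5%, of which 14.4% higher and 0.0706% lower). Called in all 3 states were 68, which is 88.3% of the baseline calls, 57.6% of the acute and 46.3% of the chronic. The matching overlap over all tested intervals is not given. The 3 comparisons share no library, but they come from 1 fit with a shared estimate of the spread. Intervals called in at least 1 state had a median of 85826 covered T positions per library and those not called 26635, so depth differs between them. Their median lengths were 5067 and 5042 bases, and their median T contents 30.2% and 30.7%.

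The largest excess at baseline was that of Ntrk2, the receptor of the neurotrophin BDNF (chromosome 13, 58932061 to 58937030, plus strand). Its rate was 19.3, 12.1, 16.7, 12.3 and 9.58 per 10000 with 4sU and 2.61, 2.73, 4.09 and 2.06 with DMSO. The log2 ratio was 2.27 ± 0.24 (SE; edgeR adjusted p = 2.42e-18), and it was 2.46 ± 0.23 under acute and 2.42 ± 0.28 under chronic stress. Eif5a2, a translation factor, had 9.92, 9.26, 9.36, 11.8 and 10.8 against 0.795, 2.38, 2.91 and 2.39, a log2 ratio of 2.26 ± 0.33 (edgeR adjusted p = 6.59e-10). The imprinted retrotransposon-derived gene Peg10 had 16.5, 8.78, 7.98, 10.5 and 5.24 against 1.99, 2.33, 2.92 and 2.75, a log2 ratio of 1.97 ± 0.29 (edgeR adjusted p = 9.96e-10). In each of these 3 no 4sU library overlapped a DMSO library.

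Further members of this group were Syt2, a calcium sensor of transmitter release, with a log2 ratio of 1.92 ± 0.30, and Rims3, an active zone protein, with 1.85 ± 0.29. Slc1a2, the most read member, had 1.81 ± 0.20 at baseline, 2.24 ± 0.19 under acute and 2.35 ± 0.24 under chronic stress. Grin2b, the longest, had -0.11 ± 0.25, 0.25 ± 0.24 and 0.45 ± 0.29 in the same order, and its adjusted p values by edgeR were 0.936, 0.673 and 0.388. Lrrc58 was called at baseline only in these tests (1.82 ± 0.55, edgeR adjusted p = 0.0455), and the difference between states did not pass. The baseline call of Lrrc58 was lost in 21 of 26 fits that left out 1 library (highest edgeR adjusted p = 0.136).

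The 4sU excess itself was compared between states. For acute against baseline 0 long intervals passed, beside 0.0% of all tested, with 53 long intervals at an unadjusted p under 0.05. For chronic against baseline 1 passed, 0.0953% of those tested beside 0.0605% of all tested. It was Slc4a8, a sodium-driven chloride bicarbonate exchanger of neurons, which was named after its values were seen (chromosome 15, 100815632 to 100823970). Its rate was 3.52, 4.54, 3.58, 2.94 and 4.24 in baseline 4sU, 3.81, 2.30, 3.93 and 4.22 in baseline DMSO, 7.34, 7.19, 4.56 and 14.2 in chronic 4sU and 1.60, 2.22 and 1.11 in chronic DMSO. The interaction was 2.24 ± 0.52 on the log2 scale (edgeR adjusted p = 0.0298). These rates rest on 7 to 77 conversions per library, and the replicate block, the test of reads with a conversion and a term for the library's overall rate each left 0 calls.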

How the data were processed

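The authors deposited, for each of 26 amygdala libraries, a table of 23996 RefSeq 3′ UTR intervals made with slamdunk 0.4.3 on mm10, per the file headers. Its counts are reads, reads with a conversion, covered T positions and T-to-C conversions. Its conversion rate is a fraction and its CPM column scales reads to the whole library, per the file headers. The authors also deposited exon counts per gene. Tools listed in the submitters' processing notes, with no role given, are featureCounts 2.0.1, SAMtools 1.9, HISAT2 2.1.0 and cutadapt 3.1. No source used here gives the base quality, variant and multiple-match settings. The 6 auditory cortex libraries were not used here.

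For interval reads the test was edgeR 4.0.16 under R 4.3.3 (TMM, filterByExpr, robust quasi-likelihood, 1 fit of 6 groups). Conversions had an offset of log covered T positions and were tested in intervals with a mean of at least 2000 of them per library. Adjusted p under 0.05 was the threshold. DESeq2 1.42.0 was an alternative. Class values were computed in Python 3.11.15 (pandas 2.3.3, numpy 2.4.6) with no test, and figures drawn with matplotlib 3.10.9. On simulated data for baseline 4sU against DMSO (15713 intervals), 44% of 1.5-fold and 72% of 2-fold changes were recovered. For chronic against baseline DMSO these were 25% and 71%. For conversion at baseline (9859 intervals) 6% of 2-fold and 43% of 4-fold changes were recovered. That conversion fit had the library's overall rate in its offset, unlike the main test, so its recovery is not that of the main test.

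Over 45 pairs of libraries of a group the chi-square per degree of freedom was 2.42 to 55.1, so none was counted as a repeat of another. The members and gene lists were chosen with earlier results of these data known. Named intervals are, per comparison of reads, the 5 strongest increases and 5 strongest decreases that passed, at 2 CPM or more, up to 3 per gene list by smallest p, the 8 largest conversion excesses at baseline, the 8 longest, the 8 most read, and fixed genes. Alternatives were other scalings and filters, DESeq2, fits of the compared groups, leaving out each library, a replicate block, 1 interval per symbol and a length of 6000 bases. Chosen after seeing the data were the T content term, the library rate term, and leaving out the libraries low in glutamatergic markers or the 100 most read other intervals.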

Additional observations from a re-analysis of the deposited data

Results flagged for a closer look

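Acute DMSO library 2 stood apart from the other 4 of its group. Long intervals took 12.13% of its reads (19.09% to 19.76% in the others) and 13.34% of covered T positions, and depth in long over other intervals was 0.4149. Its interval reads per exon count were 0.8596, above the others. Fubp1 was at 133.1 CPM and Slc1a2 at 1730 CPM in the same library. Baseline DMSO library 3 was low in T positions per long-interval read (39.82) and in the share of the T-richest quartile (22.08%). C2cd4c, a small neuronal protein gene, had 19.61 CPM in acute DMSO library 5 (6.59 to 10.1 in the others), Nos1 had 270.1 CPM in acute 4sU library 2, and the conversion rate of Ntrk2 was 21.98 in acute 4sU library 1 (8.991 to 11.99 in the others). Among 130 groups of values examined 11 had such a value, and chance gives about 1 in 20.

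The 4sU effect on conversion differed between chronic and baseline mice for 1 long interval, 0.0953% of those tested beside 0.0605% of all tested. The effect on reads differed for 234 long intervals, 21.8% of members beside 25.9% of all tested. By edgeR the difference on the log2 scale was 0.80 for Trp53inp1 (adjusted p = 0.0105), 1.58 for Pcdh11x (0.000219), 1.15 for Fubp1 (3.82e-07), 0.87 for Gria2 (0.000102), -0.92 for Mdga1 (0.00125) and -0.92 for Nos1 (0.0158). The baseline 4sU libraries enter this difference, and the acute 4sU libraries have no weight in it. Both groups had lower oligodendrocyte markers than the rest. At baseline, endothelial and mural markers were also lower and glutamatergic markers higher with 4sU than with DMSO. Under chronic stress, oligodendrocyte and oligodendrocyte precursor markers were higher with 4sU than with DMSO. Choroid plexus and ependymal markers were lower there with 4sU, and none of these ranges overlapped. The part of these markers in the difference was not tested.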

How the results depend on the processing

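Counts are long intervals past the threshold, and shares over all tested intervals are not given for them. Fitted with only the groups of the comparison, they were 702 for 4sU against DMSO at baseline, 344 under acute stress, 12 for acute against baseline 4sU, 1 for DMSO and 457 for the chronic interaction. DESeq2 gave 7 and 22 for acute against baseline with 4sU and DMSO. With the T content term they were 210, 338, 257 (chronic against baseline 4sU) and 50 (chronic interaction). Without the libraries low in glutamatergic markers, acute against baseline gave 7 with 4sU and 91 with DMSO. Leaving out 1 library gave 395 to 605 (baseline), 464 to 667 (acute), 1 to 9 and 6 to 72 (acute against baseline, 4sU and DMSO), 446 to 655 (chronic against baseline 4sU) and 164 to 423 (chronic interaction); for conversion 56 to 78, 100 to 133, 112 to 151, and 0 to 2 for the chronic interaction. Leaving out acute DMSO library 2 gave the highest values for reads, also in comparisons without that group. All groups share a fit, with its scaling and estimate of the spread, and the cause of the higher counts was not tested.

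The replicate numbers do not pair the libraries: same-numbered ones correlated at a mean r of -0.012 over 58 pairs, and 1 of 26 correlated best with its own number. With the replicate block, calls were 443 at baseline and 507 under acute stress, 1 for acute against baseline 4sU, and 0 for the chronic conversion interaction, which was also 0 with reads with a conversion, with the library rate term, and when libraries low in glutamatergic markers were left out.

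At 6000 bases or more, 0% were called for acute against baseline with 4sU and 0% with DMSO, and 14.5% for the chronic interaction; shares were 5.98% of reads and 6.67% of coverage, depth ratio 0.623 and rate ratio with 4sU 0.784. With 1 interval per symbol the shares were 16.4% and 17.8%. Without the 10 most read long intervals they were 17% and 18.6%, and the rate ratio 0.649. Without the 100 most read other intervals the rate ratio was 0.848. Under the T content term Epha5 (0.0119) and Trim33 (0.10) changed sign for 4sU against DMSO under acute stress, and Trim33 for chronic against baseline 4sU (-0.0047). Of 121 named read calls, 82 held under that term. The cause of these shifts was not tested.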
